A study of Canis lupus familiaris with 4 samples.

Results

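The ATF4 amino acid and ER stress response was followed here through 10 genes, ATF4, ASNS, DDIT3, TRIB3, CHAC1, XBP1, HSPA5, HSP90B1, DNAJB9 and PDIA4, in sorted stem-like cells from mammary cancer lines of the dog, grown with or without macrophages. The array files gave 8 of these genes by symbol, on 16 probes. ASNS, which the files list under a locus symbol whose gene ID RefSeq names ASNS, and CHAC1, which they name in words only, added 3 probes. The 19 probes belong to an array of 43603 probes and 12390 RefSeq symbols. ATF4, XBP1 and HSPA5 had 3 probes each, ASNS, HSP90B1 and PDIA4 had 2 each, and the other 4 genes had 1. All 19 probes were well above background in all 8 channels, and probes of a gene are numbered from the brightest.

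RNA came from the lines P114 and CMT-U27, each sorted by flow cytometry for cells that were Sca1+/EpCAM+/CD44+. The sorted cells were taken at day 3, either from co-culture with tumour-associated macrophages or from single culture. Each of 4 two-colour arrays held both cultures of a line, with 2 arrays a line and the dyes exchanged between them. The co-culture was in Cy3 on P114 replicate 1 and CMT-U27 replicate 2, and in Cy5 on P114 replicate 2 and CMT-U27 replicate 1. Each line is a single cell line, the source of the macrophages is not given in the sources used here, and neither is how they were kept apart from the sorted cells before RNA was taken. The labels speak of biological replicates without saying whether the RNA extracts were separate, so p-values measure no more than a spread between these arrays, which may be technical. For co-culture that spread leaves out any dye difference shared by both lines, because a dye term was fitted. Those p-values and intervals thus do not measure how closely the 2 arrays of a line agree. Channel 1 is Cy3 in the P114 records and Cy5 in the CMT-U27 records, and an error in that order would turn the sign of every co-culture ratio of that line.

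Cells answer misfolded protein in the endoplasmic reticulum (ER) through the sensors PERK, IRE1 and ATF6. PERK, and the kinase GCN2 when amino acids run short, phosphorylate the initiation factor eIF2alpha, which slows most translation but favours that of the ATF4 mRNA. The transcription factor ATF4 raises genes of amino acid synthesis and uptake such as ASNS, as well as DDIT3 (CHOP), TRIB3 and CHAC1. IRE1 splices the mRNA of XBP1, and XBP1 and ATF6 raise the chaperones and folding enzymes of the ER, among them HSPA5 (BiP), HSP90B1 (GRP94), DNAJB9 and PDIA4. Arrays measure mRNA and not translation, and splicing of XBP1 was not analysed here.

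The results turn on probes of 4 genes, and those whose position along the transcript matters are shown, as deposited in the array files, with CanFam3.1 coordinates. They are printed 5′ to 3′ on the transcript's strand, with no base capitalised. ATF4 probes 2 and 3 lie at chr10:25529173-25529232 and chr10:25530066-25530125 on the minus strand, so probe 3 is nearer the transcript's 5′ end. XBP1 probes 1, 2 and 3 lie at chr26:22163792-22164168, chr26:22163744-22163803 and chr26:22165745-22165804 on the minus strand, with probe 3 nearest the 5′ end. HSPA5 probes 2 and 3 lie at chr9:57855145-57855204 and chr9:57851591-57852098 on the plus strand, with probe 3 nearer the 5′ end. HSP90B1 probe 2 lies at chr15:42459518-42459577 on the plus strand, 5′ of probe 1. An interval longer than the 60 bases of a probe, as for XBP1 probe 1 and HSPA5 probe 3, is a match that the files place over a gap.
ATF4 probe 2: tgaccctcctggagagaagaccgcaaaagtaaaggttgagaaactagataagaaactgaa
ATF4 probe 3: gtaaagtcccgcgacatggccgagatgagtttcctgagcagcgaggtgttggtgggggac
XBP1 probe 1: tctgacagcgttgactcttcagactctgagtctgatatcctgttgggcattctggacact
XBP1 probe 2: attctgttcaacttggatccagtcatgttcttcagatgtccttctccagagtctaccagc
XBP1 probe 3: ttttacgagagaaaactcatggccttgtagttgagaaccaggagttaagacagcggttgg
HSPA5 probe 2: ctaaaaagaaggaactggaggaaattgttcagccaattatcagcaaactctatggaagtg
HSPA5 probe 3: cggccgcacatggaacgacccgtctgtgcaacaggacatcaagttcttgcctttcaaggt
HSP90B1 probe 2: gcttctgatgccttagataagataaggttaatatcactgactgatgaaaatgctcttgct

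The brightest probes of ATF4, ASNS, HSPA5 and PDIA4 hold the polyadenylation hexamer AATAAA, read on the printed strand alone, which 9.9% of the 28692 probes tested hold. No exon annotation of that assembly was used here.

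After loess, which removes a trend of the ratio with brightness, the co-culture signal over the whole array was weak. With median centring in place of loess, 60.4% of all probes tested had an adjusted limma p under 0.05 in CMT-U27, and 0.0174% in P114. Whether loess took out part of a co-culture signal was not tested. Spots well above background made up 57.9 to 65.7% per channel on 3 arrays and 89.4 and 91.7% on P114 replicate 1, which therefore stands apart. The log2 ratios of the 2 arrays correlated over probes at r = -0.15 in P114 and 0.05 in CMT-U27, given as a description. With the dyes exchanged, a dye difference at a probe enters the 2 ratios with opposite signs and lowers r. So r does not measure the co-culture effect alone. Of 17 macrophage markers, 3 were well above background on both P114 arrays and 2 on both CMT-U27 arrays, in each culture, and CSF1R and CD163 were so in no CMT-U27 channel. In CMT-U27, 13 of the 17 were well above background on neither array in single culture and 10 in co-culture, and C1QC, SPI1 and FCER1G were so on 1 co-culture array and on 0 single-culture arrays. The log2 of their summed level was 11.42 to 11.69 in single culture and 11.36 to 11.71 in co-culture of P114, and 11.49 to 11.59 against 11.54 to 11.62 in CMT-U27. The sort markers EPCAM and CD44 were well above background in all 8 channels. In such bulk RNA, fewer cells of a type and less RNA per cell cannot be told apart.

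After loess, no probe of the 10 genes passed the test for co-culture over single culture, in either line or for the difference between lines. In P114 the 3 probes of XBP1, the transcription factor of the IRE1 branch, were higher in co-culture on both arrays, by 1.24 to 1.28-fold on average. In CMT-U27 the same probes had mean log2 ratios of 0.07 to 0.09, and probe 1 stood at -0.0096 without background correction and at -0.020 with the scanner software's log ratio, so they have no settled direction there. ATF4, HSPA5 and HSP90B1 had ratios of opposite sign among their probes or arrays. The test was limma's moderated test with Benjamini-Hochberg adjustment over 28692 probes, at an adjusted p under 0.05, and it called 0% of all probes in P114 (smallest adjusted p 0.80), 0% in CMT-U27 (0.15) and 0% for the difference (0.26). At an unadjusted p under 0.05 it held 6.13% of all probes in P114, 3.23% in CMT-U27 and 2.86% for the difference, and among the 19 probes 3 (all XBP1), 1 (ATF4 probe 1, lower) and 0. Without P114 replicate 2 the test called 64 probes in P114 and 61 for the difference, and without CMT-U27 replicate 1 it called 17 in CMT-U27 and 8 for the difference, with 0 of the 19 among them each time. Ratios come from intensities with an offset of 50 added, which understates the change of dim probes.

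**Figure D1:**
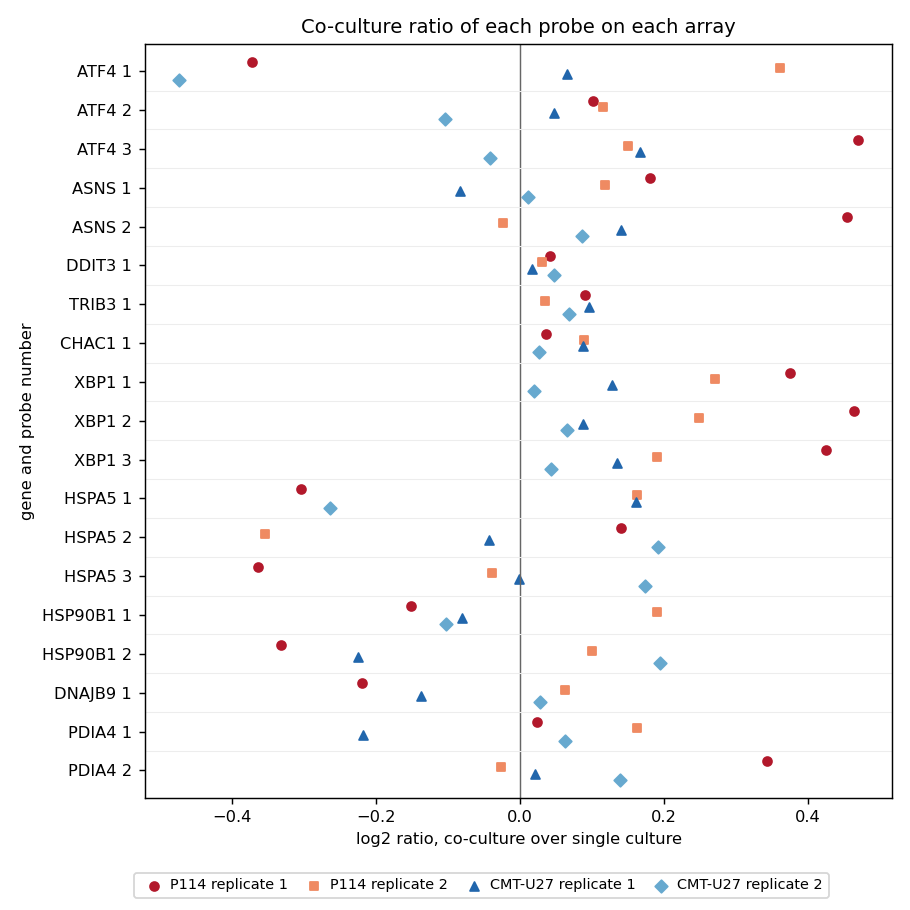
Log2 ratio of co-culture over single culture on the horizontal axis for each of the 19 probes (rows), with 1 point per array. The XBP1 points of both P114 arrays lie between 0.19 and 0.46, and the 3 HSPA5 probes scatter on both sides of 0.

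XBP1 probe 1 read 0.38 and 0.27 on P114 replicates 1 and 2, and 0.13 and 0.02 on CMT-U27 replicates 1 and 2, as log2 ratios of co-culture over single culture. Probe 2 read 0.46 and 0.25 in P114 against 0.09 and 0.07 in CMT-U27, and probe 3 read 0.43 and 0.19 against 0.13 and 0.04. All 12 ratios were above 0, and at each probe both P114 values were above both CMT-U27 values. That order turned with median centring in place of loess, where the means were 1.07 to 1.23 in CMT-U27 and 0.52 to 0.64 in P114, and the difference 0.51 to 0.60. The P114 means with their SD (n = 2) were 0.32 ± 0.07, 0.36 ± 0.15 and 0.31 ± 0.17. Their unadjusted limma p was 0.013, 0.011 and 0.025, and the adjusted p was 0.80 at each. The 95% intervals were 0.12 to 0.53, 0.14 to 0.57 and 0.06 to 0.55. CMT-U27 means were 0.07, 0.08 and 0.09, and the difference between lines was -0.25 (95% interval -0.54 to 0.04), -0.28 (-0.58 to 0.02) and -0.22 (-0.56 to 0.13), each with an adjusted p of 1.0 in limma. The 3 probes read 1 gene and are not separate evidence.

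A further 3 probes that the files describe as XBP1 but list under expressed-sequence clusters lie just 3′ of probe 2 and were outside the rule. They read 0.31 to 0.52 on P114 replicate 1, and -0.21, -0.11 and 5.4e-05 on P114 replicate 2. In CMT-U27 they read 0.05 to 0.16. So these probes were higher on P114 replicate 1 and not on replicate 2, and their P114 means of 0.13 to 0.21 had unadjusted limma p-values of 0.19 to 0.44. On the same P114 arrays 5 of 7 epithelial and sort markers were below 0, with a median log2 ratio of -0.20 and none called, and their part in the XBP1 values was not tested.

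Among ATF4 and its direct branch, ATF4 probe 1 read -0.37 and 0.36 on the P114 arrays and 0.07 and -0.47 on the CMT-U27 arrays. These signs follow the dye on all 4 arrays, with Cy5 above Cy3 by 0.07 to 0.47. ATF4 probe 2 read 0.10 and 0.12 in P114 and 0.05 and -0.10 in CMT-U27, and probe 3 read 0.47 and 0.15 against 0.17 and -0.04. So probes 2 and 3 were above 0 on 3 of 4 arrays, and probe 1 on 2. In CMT-U27 the mean of probe 1 was -0.20 ± 0.38 (SD, n = 2). In limma, with the dye term fitted, its unadjusted p was 0.048 and its adjusted p 1.0, although the 2 CMT-U27 arrays differed in sign. A dye sign shared by all 4 arrays was found at 3 of the 19 probes (ATF4 probe 1 and HSPA5 probes 1 and 2) and at 18.2% of all probes tested.

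ASNS, which makes asparagine from aspartate, read 0.18 and 0.12 in P114 and -0.08 and 0.01 in CMT-U27 at probe 1. Its probe 2 read 0.46 and -0.02, then 0.14 and 0.09. At probe 1 both P114 values were above both CMT-U27 values, at probe 2 they were not, and neither probe passed the test.

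The other ATF4 targets of the list gave small ratios. DDIT3, a transcription factor of prolonged ER stress, read 0.04 and 0.03 in P114 and 0.02 and 0.05 in CMT-U27. TRIB3, a pseudokinase that binds AKT, read 0.09 and 0.03, then 0.10 and 0.07. CHAC1, an enzyme that degrades glutathione, read 0.04 and 0.09, then 0.09 and 0.03. All 12 ratios of these 3 genes were above 0 and the highest was 0.10. Their mean signals less local median background were low, 49 to 108 for DDIT3, 94 to 236 for TRIB3 and 28 to 104 for CHAC1 over the 8 channels. The added offset of 50 was thus near the size of the signal at DDIT3 and CHAC1, and below it at TRIB3. Their 95% intervals reached from -0.14 to 0.21 for DDIT3, -0.12 to 0.24 for TRIB3 and -0.11 to 0.24 for CHAC1 in P114.

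The ER chaperones shared no direction. HSPA5, the main Hsp70 chaperone of the ER, read -0.31 and 0.16 in P114 and 0.16 and -0.26 in CMT-U27 at probe 1. Its probe 2 read 0.14 and -0.36, then -0.04 and 0.19, and probe 3 read -0.36 and -0.04, then -0.0018 and 0.17. Probes 1 and 2 had opposite signs on each of the 4 arrays, and on no array did the 3 probes share a sign. HSP90B1, the Hsp90 chaperone of the ER, read -0.15 and 0.19, then -0.08 and -0.10 at probe 1, and -0.33 and 0.10, then -0.23 and 0.19 at probe 2. DNAJB9, a co-chaperone of HSPA5, read -0.22 and 0.06, then -0.14 and 0.03. PDIA4, a disulfide isomerase, read 0.02 and 0.16, then -0.22 and 0.06 at probe 1, and 0.34 and -0.03, then 0.02 and 0.14 at probe 2. Replicate arrays of a line had opposite signs at 8 of the 19 probes in P114 and 10 in CMT-U27.

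Read by sign alone, 10 of the 19 probes were above 0 on both P114 arrays and 1 was below 0 on both. In CMT-U27 these counts were 8 and 1. Over all probes tested, 43.3% had 1 sign on both P114 arrays and 50.7% on both CMT-U27 arrays. Probes above 0 on all 4 arrays numbered 6 (DDIT3, TRIB3, CHAC1 and the 3 of XBP1), beside 11.0% of all probes. With a mean log2 ratio beyond 0.3 and 1 sign on both arrays, 4 probes were higher in P114 (3 of XBP1, and ATF4 probe 3 at 0.31), beside 1.24% of all probes, and 0 were higher in CMT-U27, beside 0.781%. The median over the 10 genes, each by its brightest probe, was 0.05 in P114 and -0.04 in CMT-U27, beside 0.01 and 0.02 over all probes tested.

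These ratios rest on loess, which removes a trend of the ratio with brightness, and that trend was large. Before loess the 19 probes ran from -0.04 at DNAJB9 to 1.66 at HSPA5 probe 1 on CMT-U27 replicate 1, and from -1.94 at DNAJB9 to -0.43 at HSPA5 probe 2 on CMT-U27 replicate 2. On P114 replicate 1 CHAC1 was the lowest and ATF4 probe 3 the highest at -0.49, and on P114 replicate 2 the range was -0.30 to 0.48. The dimmest probes had the lowest ratios on both CMT-U27 arrays although the dyes were exchanged. Centring each array on its median in place of loess called 16 of the 19 probes higher in CMT-U27 co-culture. It called 17343 of all probes there (60.4%), 17025 higher and 318 lower. So no direction is given for the 10 genes in that line. With the log ratio computed by the scanner software XBP1 probe 1 stood at -0.02 there. In P114 the XBP1 probes were above 0 under each of the 13 settings run, from 0.19 to 0.64, with no adjusted p under 0.05. Most of these settings could not turn the sign. The filters, marked spots, dye term and loss of a CMT-U27 array left the P114 means unchanged. Leaving out 1 P114 array only restates the ratio of the other.

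**Figure D2:**
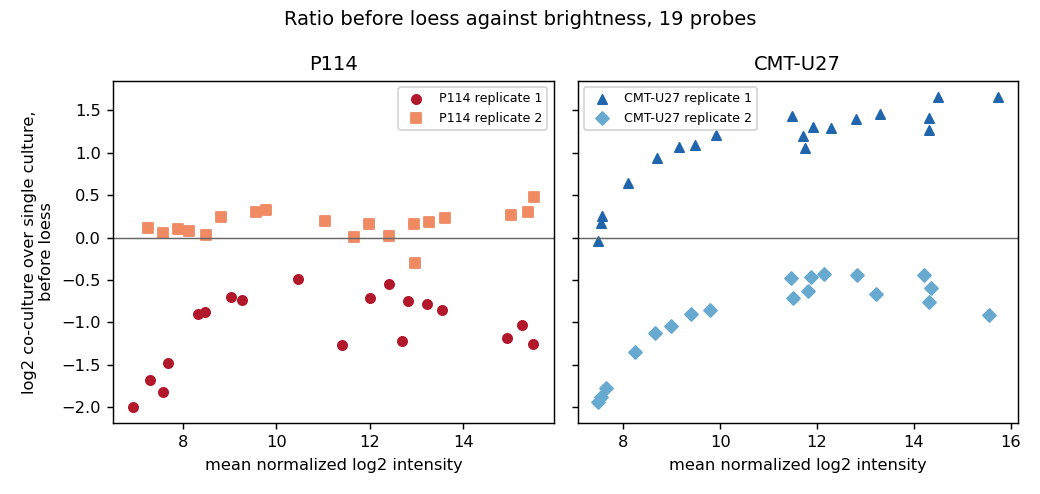
Log2 ratio of co-culture over single culture before loess (vertical axis) against the mean normalized log2 intensity of both channels (horizontal axis) for the 19 probes, with P114 arrays on the left and CMT-U27 arrays on the right. On CMT-U27 replicate 1 the ratio climbs from -0.04 to 1.66 with brightness, and P114 replicate 2 is nearly flat.

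After loess, the wider pathway lists gave no called gene for co-culture either. Of 34 tested ATF4 targets and amino acid genes, 22 were above 0 in each line, beside 55.1% of all probes in P114 and 67.5% in CMT-U27. The smallest p of the list in P114 belonged to NUPR1, a stress-induced chromatin protein, which read -0.59 and -0.40 in P114 and 0.19 and 0.18 in CMT-U27. The smallest p in CMT-U27 and for the difference belonged to DDIT4, an inhibitor of the kinase mTORC1, with -0.23 and -0.38 in P114 and 0.30 and 0.38 in CMT-U27. Both were lower on both P114 arrays and higher on both CMT-U27 arrays, with differences between lines of 0.68 and 0.64, unadjusted limma p of 0.0028 and 0.0025 and adjusted p of 1.0. The second probes of both genes had the same signs in both lines, with P114 means of -0.30 for NUPR1 and -0.05 for DDIT4. With median centring in place of loess DDIT4 stood at 0.081 in P114.

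The other lists gave small values. Of 11 sensors and eIF2alpha genes, PPP1CA, a catalytic subunit of the phosphatase that acts on eIF2alpha, read 0.50 and 0.28 in P114 and 0.13 and 0.22 in CMT-U27, with all 3 of its probes above 0 in both lines. Its P114 value had an unadjusted limma p of 0.0049 and an adjusted p of 0.80. ATF6B, a relative of ATF6, read 0.09 and 0.32 in P114. Of 18 ER chaperones and folding enzymes, the chaperone HYOU1 read 0.34 and 0.27 in P114 at 1 probe, while its other probe averaged -0.03. The lectin CANX averaged -0.13 at its brightest probe and 0.19 at its other. Of 15 genes of ER-associated degradation and translocation, EDEM1 and EDEM2, which act on the glycans of misfolded proteins, averaged -0.27 and -0.25 in P114. In CMT-U27 the 2 smallest p-values of these lists belonged to PPP1CA (mean 0.18) and EIF2AK1 (0.12) among sensors, to SDF2L1 (-0.15) and FKBP2 (0.23) among chaperones, and to SEC23B (0.14) and SYVN1 (0.14) in degradation and translocation. For the difference between lines EIF2AK4, the gene of GCN2, stood at 0.28 beside PPP1CA at -0.21 and HYOU1 at -0.28. CANX stood at 0.23, EDEM1 at 0.37 and EDEM2 at 0.30. All of these had unadjusted limma p-values of 0.035 to 0.12. The other probes of HYOU1 and CANX had the opposite sign there, at 0.11 and -0.11.

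Between the lines in single culture, the brightest probes of the ER chaperones HSPA5 and HSP90B1 were called higher in P114 than in CMT-U27. The 5′ probe of HSPA5 was not higher. HSPA5 was 1.50-fold higher at its brightest probe and HSP90B1 1.90-fold. No other gene of the 10 passed the test, and PDIA4, CHAC1, XBP1, ATF4, DDIT3 and TRIB3 had lower mean levels in P114. The lines lay on different arrays, so each channel was treated as a separate sample, with its spot as a block, in limma. At an adjusted p under 0.05 over all probes, this called 15.2% of the 28692 probes, 7.02% higher and 8.23% lower in P114. It called 2 of the 19 probes, both higher, which is a smaller share than over all probes.

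HSPA5 probe 1 stood at a normalized log2 level of 15.09 and 14.95 in P114 single culture and at 14.42 and 14.44 in CMT-U27. The lines did not overlap, as at 71% of all probes, and the difference was 0.59 (95% interval 0.24 to 0.93, limma adjusted p = 0.044). Probe 2 stood at 12.74 and 13.15 against 12.30 and 12.04, a difference of 0.77 (0.26 to 1.28, adjusted p = 0.061). Probe 3, the 5′ probe, stood at 11.59 and 11.68 against 11.92 and 11.78, a difference of -0.22 (-1.03 to 0.59, adjusted p = 0.72). The 2 probes nearer the 3′ end thus had higher means in P114, with probe 1 alone called, and the 5′ probe did not. A difference between the probes was not tested. The mean over the 3 HSPA5 probes differed by 0.38 (limma adjusted p = 0.16).

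HSP90B1 probe 1 stood at 15.33 and 15.28 in P114 against 14.34 and 14.41 in CMT-U27. This gave a difference of 0.93 (95% interval 0.37 to 1.49, limma adjusted p = 0.048). Its probe 2, which lies 5′ of it, stood at 12.86 and 12.90 against 11.85 and 11.37, a difference of 1.27 (-0.04 to 2.58, adjusted p = 0.18). Both HSP90B1 probes had the same direction. The lines did not overlap at either, as at 71% of all probes. The CMT-U27 arrays were further apart at probe 2 than at probe 1. The mean over both probes differed by 1.1 (limma adjusted p = 0.11). In co-culture the differences between the lines were of like size, 0.57 for HSPA5 probe 1 and 1.04 for HSP90B1 probe 1, given without a test.

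Both calls depend on the settings: HSPA5 probe 1 was called in 6 and HSP90B1 probe 1 in 9 of the 15 settings run on single probes. Both calls ended without background correction (limma adjusted p of 0.091 and 0.064), with the scanner software's processed signals (0.18 and 0.11) and with no normalization between arrays (0.94 at both). Quantile normalization ended the HSPA5 call (0.056) and the lack of a filter on dim probes the HSP90B1 call (0.093). Dropping the dye term alone, with all 4 arrays, ended the HSPA5 call (0.068) and kept that of HSP90B1 (0.0016). The fits that leave out 1 array also had no dye term. In them HSPA5 probe 1 had no call (limma adjusted p of 0.62 and 0.44 without P114 replicates 1 and 2, and 0.89 and 0.92 without CMT-U27 replicates 1 and 2) at differences of 0.51 to 0.66. HSP90B1 probe 1 was called without either P114 array (0.026 and 0.020) and not without CMT-U27 replicate 1 or 2 (0.60 and 0.58), at differences of 0.89 to 0.96. Over all settings run, the differences lay between 0.51 and 1.14 for HSPA5 probe 1 and between 0.89 and 1.48 for HSP90B1 probe 1. With no dye term, the count over all probes was 9405 with all 4 arrays, 2914 and 4557 without P114 replicates 1 and 2, and 278 and 259 without CMT-U27 replicates 1 and 2.

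**Figure D3:**
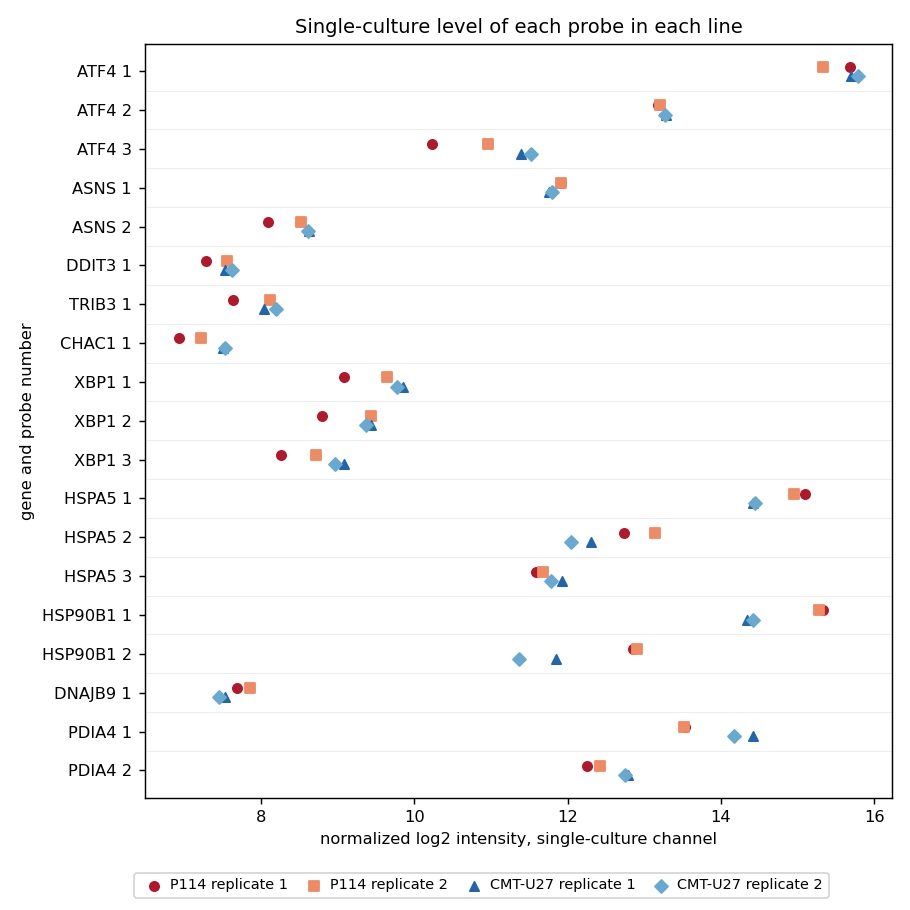
Normalized log2 intensity in the single-culture channel (horizontal axis) for each of the 19 probes (rows), with P114 arrays as circles and squares and CMT-U27 arrays as triangles and diamonds. HSPA5 probes 1 and 2 and both HSP90B1 probes are higher in P114, and both PDIA4 probes are lower.

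PDIA4, unlike the brightest probes of HSPA5 and HSP90B1, had lower levels in P114. Its probe 1 stood at 13.53 and 13.52 in P114 against 14.42 and 14.17 in CMT-U27, 1.71-fold lower (-0.77, 95% interval -1.46 to -0.08, limma adjusted p = 0.13). Probe 2 stood at 12.25 and 12.42 against 12.79 and 12.75 (-0.44, adjusted p = 0.20), and ran from -0.57 to 0.079 over the settings. DNAJB9 stood at 7.69 and 7.86 against 7.54 and 7.46 (0.27, adjusted p = 0.62). Neither gene passed the test. The lines did not overlap at any of these 3 probes, as at 71% of all probes.

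CHAC1 stood at 6.93 and 7.22 in P114 and 7.51 and 7.53 in CMT-U27, a difference of -0.45 (95% interval -0.83 to -0.07, limma adjusted p = 0.12). XBP1 stood at 9.08 and 9.65 against 9.86 and 9.78 at probe 1, and its 3 probes differed by -0.28 to -0.53. With median centring XBP1 probe 1 stood at -0.026 and probe 2 turned to 0.11. Probe 2 also turned to 0.040 without P114 replicate 1. In each of these genes P114 replicate 1, the array that stands apart, was the lowest of the 4 values. ATF4 differed by -0.24 and -0.08 at probes 1 and 2, and by -0.86 at the 5′ probe 3, where P114 stood at 10.23 and 10.97 against 11.39 and 11.52 (adjusted p = 0.20). ASNS differed by 0.14 and -0.32 at its probes, TRIB3 by -0.24 and DDIT3 by -0.16, with adjusted p-values of 0.49 to 0.60. The levels of the lines did not overlap at 16 of the 19 probes, beside 71% of all probes, so this alone sets the 10 genes apart in nothing.

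**Figure D4:**
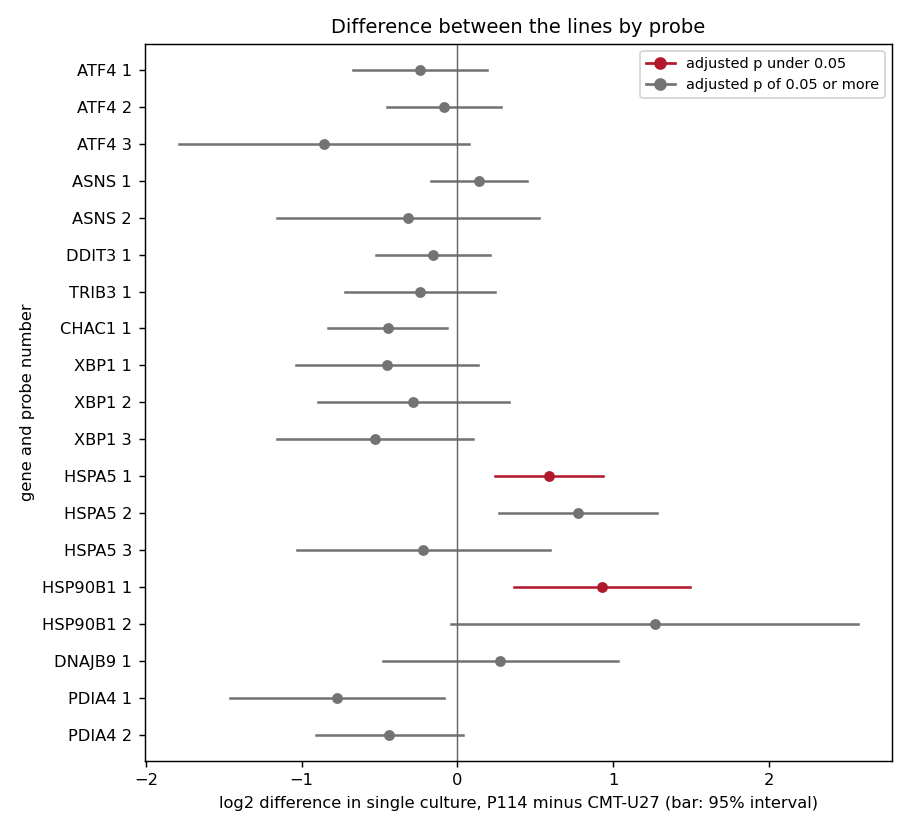
Fitted difference P114 minus CMT-U27 in single culture (horizontal axis, log2) with its 95% interval for each of the 19 probes (rows). The 2 probes in red, HSPA5 probe 1 at 0.59 and HSP90B1 probe 1 at 0.93, had an adjusted p under 0.05.

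The wider lists held calls between the lines in both directions, beside 15.2% of all probes called. In no list was the share of genes called far above that background, so the number of calls does not set the lists apart. Among 34 ATF4 targets and amino acid genes, 4 were higher and 2 lower in P114, with a list median of -0.18. NUPR1 stood at 14.11 and 14.07 in P114 against 10.09 and 10.11 in CMT-U27, 15.9-fold higher (limma adjusted p = 0.00023). PSPH, the last enzyme of serine synthesis, was 4.07-fold higher (12.12 and 12.35 against 10.24 and 10.18, adjusted p = 0.0012). PSAT1, the enzyme before it, was 2.18-fold lower (12.30 and 12.27 against 13.64 and 13.18, adjusted p = 0.010). The PSAT1 call ended with the processed signals (limma adjusted p = 0.062), with median centring, with no normalization between arrays and without any 1 of the 4 arrays. SLC38A2, a neutral amino acid transporter, was 2.53-fold higher, ALDH18A1, an enzyme of proline synthesis, 1.50-fold higher, and GARS1, the glycyl-tRNA synthetase, 1.59-fold lower (adjusted p of 0.0043, 0.038 and 0.022). The other probes of NUPR1, PSAT1 and SLC38A2 had the same sign and were called too. All 4 probes of GARS1 were lower in P114 but only 1 was called, and the probes of ALDH18A1 did not all share a sign. The calls of 4 higher and 2 lower became 3 and 0 with the processed signals, 8 and 1 with median centring, 0 and 0 with no normalization between arrays, and 1 and 0 without CMT-U27 replicate 1 or 2.

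Among 15 tested genes of ER-associated degradation and translocation, all 15 were above 0 in P114 by their brightest probes, with a median difference of 0.50 beside -0.03 over all probes, of which 46.6% were above 0. Over the settings run, 13 to 15 of the 15 lay above 0, 13 of them without P114 replicate 2. The test called 2 of the 15, EDEM2 at 3.87-fold (10.45 and 10.35 against 8.42 and 8.47, limma adjusted p = 0.0017) and SELENOS, a membrane protein of retrotranslocation, at 2.25-fold (11.34 and 11.56 against 10.31 and 10.25, adjusted p = 0.013), and neither without CMT-U27 replicate 1 or 2. The other probe of EDEM2 stood at 0.51 on the log2 scale and was not called. Dimmer probes of SEC23B and SYVN1 reached -0.25 and -0.08, so the shared direction holds for the brightest probes only. Of 18 ER chaperones and folding enzymes, 1 was called, CRELD2, a secreted protein raised by ER stress, at 1.69-fold (13.24 and 13.01 against 12.38 and 12.36, adjusted p = 0.044), with a list median of 0.09. The chaperone list had 0 calls without background correction, with the processed signals, with quantile or no normalization between arrays, with no filter on dim probes, and without P114 replicate 1 or either CMT-U27 array. Of 11 sensors and eIF2alpha genes, the brightest probe of PPP1R15B, a subunit of the eIF2alpha phosphatase, was 14.5-fold higher while its other probe stood at -1.42 on the log2 scale, both called, so this gene has no settled direction. CEBPB, PHGDH, CBS, PPP1R15A and MBTPS2 were not analysed here.

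**Figure D5:**
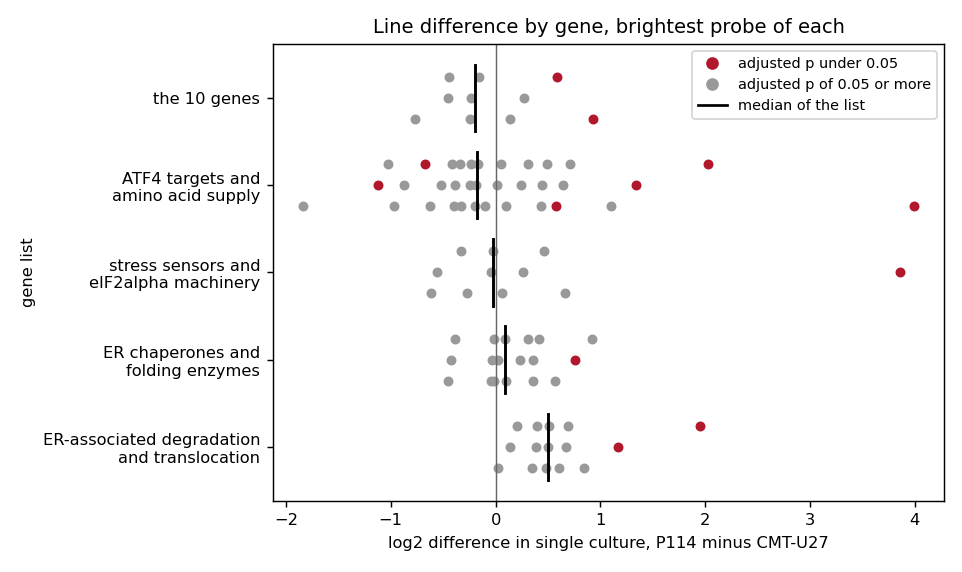
Difference P114 minus CMT-U27 in single culture (horizontal axis, log2) for each tested gene by its brightest probe, with the 10 genes and the 4 wider lists as rows and the median of each list as a bar. The 15 genes of ER-associated degradation and translocation all lie above 0, and NUPR1 at 3.99 and PPP1R15B at 3.86 are farthest right.

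Other features of the lines differed as well. The epithelial markers EPCAM and KRT18 were lower in P114, at -2.66 and -2.34 on the log2 scale (limma adjusted p of 0.00075 and 0.0019), and so were KRT19 and KRT14 (-3.91 and -2.47). CDH1 and KRT5 stood at -1.84 and -0.17 and were not called (limma adjusted p of 0.085 and 0.64). The sort marker CD44 stood 1.45 higher with an adjusted p of 0.11. COL1A2, a collagen chain of stromal cells, was 2.81 higher (adjusted p = 0.00040). It was the only 1 called of 7 stromal markers, whose median was 0.21. The part of these markers in the chaperone differences was not tested.

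Over the 8 channel levels, the genes most like ATF4 by its probe 1 were TOMM5 (Pearson r = 0.96), HNRNPD (0.95) and RPS18 (0.92), among 8291 genes well above background in all channels. The 8 points share arrays in pairs, and ATF4 probe 1 follows the dye, so the likeness is a description.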

How the data were processed

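For each spot the deposited scanner files give a linear intensity in both dyes, its local background and flags of 0 or 1, as written by Agilent Feature Extraction (version 10.10.1.1 per the file headers, 10.7.3.1 per the submitters' processing notes) for array design 021193. The authors' deposited value matrix repeated the scanner files' log10 ratio of red over green at each of 45220 spots per array (largest gap 0, medians 0), and served as an alternative. The labels name a miRNA labelling kit.

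Background correction was by normexp on mean and local median background signals (offset 50), and ratios were normalized by loess within each array with controls at weight 0. Marked spots were left out and spots of a probe averaged. A probe was kept if both arrays of some line and culture showed it well above background (28732, of which 40 were lost to a marked spot). Files were read in R 4.3.3 through version 1.17.8 of the package data.table. limma 3.58.1 fitted the log2 ratios of all 4 arrays with 1 coefficient for each line plus a dye term for each probe (1 residual and 2.76 prior degrees of freedom). The lines were compared after Aquantile by a separate-channel fit with the dye term (3 residual and 2.69 prior degrees of freedom, intraspot correlation 0.94). No spot was saturated. The 4 arrays share 1 slide, and their number limits the precision. The fits were tested on simulated data.

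A gene is shown by its brightest tested probe. From each wider list (87 genes in 4 lists) were named those past the test, at most the 6 smallest p, or else the 2 smallest p. The 10 genes and all lists were chosen with earlier results of these data known. RefSeq names come from assembly UU_Cfam_GSD_1.0, used for names only. The plots used matplotlib 3.10.9 under Python 3.11.15.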

Additional observations from a re-analysis of the deposited data

How the results depend on the processing

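The co-culture ratios pair both cultures of a line on each array. Across the lines no pairing was possible, because the replicate numbers follow the order of the records. Fits that leave out 1 array had no dye term and, for the lines, used the intraspot correlation of all 4 arrays. Where a cause is not named below, the cause was not tested. All alternatives but the centring on bright probes were planned.

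Of 74 values of named genes, a filter on all 8 channels and marked spots kept changed no direction or call, no filter on dim probes ended 2 calls, and dropping the dye term ended 1 and added 2. Calls over all probes for co-culture rose from 0 to 5 in P114, 17343 in CMT-U27 and 12448 for the difference with median centring, and to 83, 19227 and 7719 with centring on probes well above background in all 8 channels, which was chosen after seeing the data. Among the 19 probes median centring gave 16 and 11 calls (CMT-U27 and the difference), beside 60.4 and 43.4% of all probes. The other centring gave 14 in CMT-U27, 11 higher and 3 lower, beside 67% of all probes. Without background correction 12 probes were called in CMT-U27 and 1 for the difference, and with the filter on all 8 channels 1 in CMT-U27. Leaving out 1 array gave 0 to 64 calls in P114, 0 to 17 in CMT-U27 and 0 to 61 for the difference.

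Between the lines, 4375 calls became 2372 with the scanner software's processed signals, 0 with no normalization between arrays and 9405 with no dye term, and 259 to 4557 without 1 array. The 2 calls among the 19 probes became 0 without background correction, with the processed signals and with no normalization between arrays, 1 with quantile normalization or no filter on dim probes, 4 with median centring, 5 with centring on bright probes, 7 with no dye term and 0 to 2 without 1 array.

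Directions turned mostly at values near 0 or under the centrings. In P114 co-culture, ATF4 turned to 0.057 without background correction, 0.061 with the scanner's own log ratio and 0.14 as the mean over its probes, where HSP90B1 turned to -0.048 and CANX to 0.032. Median centring gave ATF4 0.45, CHAC1 -0.10, HSPA5 0.38, DDIT4 0.081, CANX 0.27 and EDEM2 0.13, and centring on bright probes gave ATF4 0.23, DDIT3 -0.20, TRIB3 -0.085, CHAC1 -0.33, HSPA5 0.15 and CANX 0.043. In CMT-U27 co-culture, XBP1 and HSPA5 turned to -0.0096 and 0.020 without background correction, and XBP1, HSPA5 and HSP90B1 to -0.020, 0.037 and 0.0011 with the scanner's log ratio. Median centring gave ATF4 1.43, ASNS 1.34, HSPA5 1.51, HSP90B1 1.46, DNAJB9 0.070, PDIA4 1.47 and SDF2L1 1.39. Centring on bright probes gave ATF4 0.52, ASNS 0.43, DDIT3 -0.65, TRIB3 -0.20, CHAC1 -0.66, HSPA5 0.60, HSP90B1 0.55, PDIA4 0.56, EIF2AK1 -0.15, SDF2L1 0.49 and SYVN1 -0.083. Means over probes gave ASNS 0.038, HSPA5 0.036 and PDIA4 0.0012. For the difference, TRIB3 and CHAC1 turned to -0.025 and 0.016 without background correction and TRIB3 to -0.044 with the scanner's log ratio. Median centring gave ATF4 0.98, ASNS 0.77, DDIT3 0.23, CHAC1 0.35, XBP1 0.60, HSP90B1 0.98, PDIA4 0.94, HYOU1 0.33 and PPP1CA 0.70, and centring on bright probes ATF4 0.30, ASNS 0.096, TRIB3 -0.12, HSP90B1 0.31, DNAJB9 -0.59, PDIA4 0.26, EDEM1 -0.074 and PPP1CA 0.025. Between the lines, median centring gave ATF4 0.35 and TRIB3 0.033, centring on bright probes ATF4 0.0086 and DNAJB9 -0.031, no normalization between arrays ATF4 0.086 and DNAJB9 -0.072, and the mean over its probes ASNS -0.089.

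Without 1 array, P114 co-culture values ran from -0.37 to 0.36 for ATF4, -0.31 to 0.16 for HSPA5, -0.15 to 0.19 for HSP90B1 and -0.22 to 0.063 for DNAJB9. In CMT-U27 they ran from -0.47 to 0.065 for ATF4, -0.084 to 0.011 for ASNS, -0.26 to 0.16 for HSPA5, -0.14 to 0.028 for DNAJB9 and -0.22 to 0.063 for PDIA4. The difference ran from -0.57 to 0.17 for ATF4, -0.019 to 0.011 for DDIT3, -0.0087 to 0.047 for TRIB3, -0.036 to 0.025 for CHAC1, -0.21 to 0.25 for HSPA5, -0.28 to 0.060 for HSP90B1 and -0.12 to 0.17 for DNAJB9. TRIB3 ran from -0.48 to 0.0034 between the lines.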
